A study of Homo sapiens with 15 samples.

Results

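The human mitochondrial genome carries 37 genes, and the deposited tables of C4-2B cells list all 37 of them. They were chosen as every gene on chromosome MT, 37 of the 58302 genes in the tables, and the rule uses position alone. Of these, 13 code for messenger RNAs, 2 for ribosomal RNAs and 22 for transfer RNAs. C4-2B is an established human prostate adenocarcinoma cell line of LNCaP origin. The labels give it as wild type, name no drug or siRNA for it, and have it grown in RPMI medium with fetal bovine serum. The labels list 15 RNA-seq libraries in 5 groups: C4-2B, and neuroendocrine-like DKD and ER cells that each received Pax5 siRNA or a scrambled control. Tables of the 3 C4-2B replicates were used, the remaining 4 groups were not analysed here, and no groups were therefore compared.

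Libraries were prepared from total RNA after removal of ribosomal RNA with a kit that keeps strand, and both ends of each fragment were read. The authors counted reads per gene without regard to strand, counted each mate of a pair separately, and dropped any read that touched more than 1 gene. Library totals were 44992971, 49569026 and 46232076 counts for replicates 1, 2 and 3. Nothing in the labels says whether the replicates were separate cultures, so p-values measure the spread between these libraries, which may be technical. Levels are given as TPM, counts per base of gene length scaled to a sum of 1e+06 in each library. As a check of the cells, 5 prostate luminal markers lay between 201 and 1988 TPM (TMPRSS2 and KLK3), and the neuroendocrine markers CHGA and SYP at 1.38 and 1.31 TPM. The fibroblast gene COL1A2 had 0 counts in all 3 libraries, COL1A1 was at 7.09 TPM, and the blood cell gene PTPRC was at 0.0055 TPM.

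Mitochondrial DNA is a small circle that is read on both strands into long precursor RNAs. Most genes are coded on the heavy strand, and transfer RNA genes sit between the messenger and ribosomal RNA genes. Cutting out the transfer RNAs by RNase P and the ELAC2 nuclease releases the other RNAs, and a poly(A) tail is then added to most messengers. The proteins are core subunits of respiratory complexes I, III and IV and of ATP synthase, and the other proteins of the organelle come from nuclear genes.

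Neighbouring genes in this genome leave almost no space between them. In 36 adjacent pairs (GRCh38, chromosome MT, 16569 bases), 20 touched with no gap, 5 shared bases and 11 had a gap. Of the gaps, 6 were of 1 to 3 bases, and the widest was the 31 bases between MT-TN and MT-TC, where the light-strand origin of replication lies. Genes covered 15358 bases, 58 of them under 2 genes at once, and 1211 bases were under none. Most of the uncovered bases form the control region, with 576 bases before the first gene and 546 after the last. Coordinates of all 37 genes were the same in GENCODE release 44.

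The shared stretches are shown because every read touching them was left out of the counts. The sequences are from GRCh38, 5′ to 3′ on the plus strand, with the bases that belong to both genes in capitals. The capitals in the messenger pairs open with the start codon of the downstream gene and close with the stop codon of the upstream gene.
MT-ATP8/MT-ATP6 (chrM:8507-8592): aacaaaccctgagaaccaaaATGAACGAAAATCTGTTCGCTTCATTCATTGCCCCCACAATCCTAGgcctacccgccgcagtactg
MT-ND4L/MT-ND4 (chrM:10740-10786): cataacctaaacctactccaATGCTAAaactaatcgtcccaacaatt
MT-TI/MT-TQ (chrM:4309-4351): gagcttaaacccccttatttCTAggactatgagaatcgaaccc

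MT-ATP8 and MT-ATP6, both subunits of ATP synthase, shared 46 bases, which is 22.2% of MT-ATP8 and 6.75% of MT-ATP6. MT-ND4L and MT-ND4, both subunits of complex I, shared 7 bases, or 2.36% and 0.508% of each. The isoleucine and glutamine transfer RNA genes MT-TI and MT-TQ shared 3 bases on opposite strands. The other 2 pairs, MT-TC with MT-TY and MT-ATP6 with MT-CO3, shared 1 base each. In all, 9 genes held shared bases.

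Several messengers end inside a codon, directly against the transfer RNA gene that follows. Of the 13 messenger genes, 6 ended 1 or 2 bases past their last whole codon, and the stop codon is known to be completed by the poly(A) tail. These were MT-ND1, which ends in TA, and MT-ND2, MT-CO3, MT-ND3, MT-ND4 and MT-CYB, which end in T. The 30 bases around 3 of these ends are shown, on the plus strand, with the bases past the last whole codon in capitals and the next gene starting right after them.
MT-ND1 (chrM:4243-4272): agcattccccctcaaaccTAagaaatatgt
MT-ND3 (chrM:10385-10414): aggattagactgaaccgaaTtggtatatag
MT-CYB (chrM:15868-15897): caaaatactcaaatgggccTgtccttgtag

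All 37 genes had counts in every library. Together they took 2.71%, 2.90% and 3.09% of the counts in replicates 1, 2 and 3 (mean 2.90% ± 0.187, SD, n = 3), lowest in replicate 1 and highest in replicate 3. Per base of gene length they made up 9.79% ± 0.702 of all TPM (SD, n = 3). On this scale RN7SL2, a signal recognition particle RNA gene of 300 bases, alone took 203182, 195564 and 188664 TPM in replicates 1, 2 and 3. All TPM of other genes are lower for it, and its fall adds to their rise from replicate 1 to 3. In bulk RNA, more mitochondrial RNA per cell and more cells rich in it cannot be told apart. Messenger genes held 97.7% ± 0.215 of the mitochondrial counts, ribosomal RNA genes 1.64% ± 0.213 and transfer RNA genes 0.702% ± 0.00633 (SD, n = 3). Of the mitochondrial TPM, messengers held 89.5%, ribosomal RNAs 1.03% and transfer RNAs 9.43%. The difference between messenger and transfer RNA class medians was 5.18 ± 0.08 on the log2(TPM + 1) scale (SD, n = 3), and was alike in the 3 libraries, at 5.10, 5.26 and 5.17. It rests on deposited gene length, and division by usable positions for a 75-base read, described below, raised several transfer RNA genes more than any messenger. In the whole tables, 2 genes had more counts than MT-CO1, and 6 of the 25 genes with the most counts were mitochondrial.

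**Figure D1:**
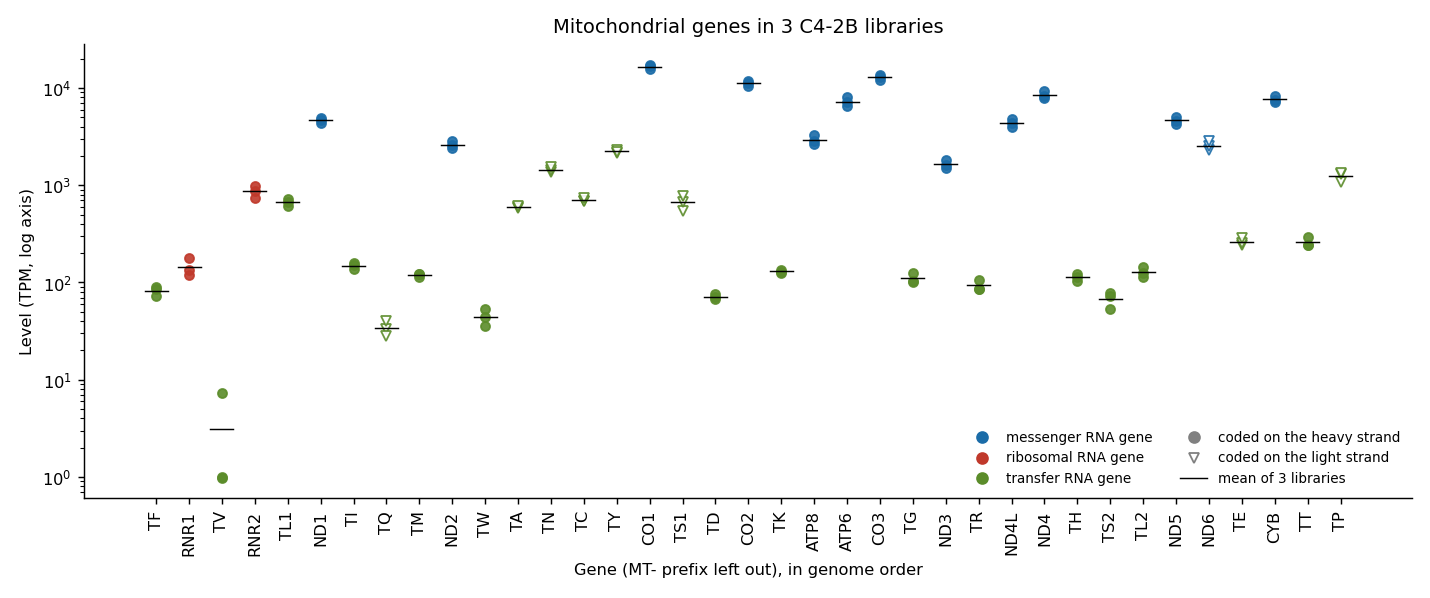
Level of each of the 37 mitochondrial genes in TPM (log axis) in genome order, with 1 point per C4-2B library and a bar at the mean, filled circles for genes coded on the heavy strand and open triangles for the light strand. Messenger genes lie between 1639 and 16630 TPM, and transfer RNA genes between 3.09 and 2227 TPM.

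Among messengers, the 3 subunits of complex IV (cytochrome c oxidase) stood highest. MT-CO1, its catalytic subunit, had 15752, 16730 and 17407 TPM in replicates 1, 2 and 3 (16630 ± 832, SD, n = 3). MT-CO3 had 12119, 13014 and 13635 TPM (12922 ± 762), and MT-CO2, which takes electrons from cytochrome c, had 10423, 11330 and 11926 TPM (11227 ± 757). The order MT-CO1, MT-CO3, MT-CO2 held in each library with ranges that did not overlap, and MT-CO1 was 0.36 ± 0.01 above MT-CO3 on the log2 scale. These 3 genes made up 47.0%, 47.0% and 45.6% of mitochondrial messenger TPM.

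MT-CYB, the only complex III subunit coded in this genome, was at 7692 ± 570 TPM (SD, n = 3) and made up 8.78% of mitochondrial messenger TPM. The ATP synthase subunit MT-ATP6 was at 7267 ± 700 TPM and its partner MT-ATP8 at 2945 ± 328 TPM, 11.6% of messenger TPM together. MT-ATP6 stood above MT-ATP8 by 1.30 ± 0.03 on the log2 scale in deposited length, although both are read from 1 messenger. The pair MT-ND4 and MT-ND4L, also known to share a messenger, differed by 0.96 ± 0.03 on the log2 scale. In both pairs the ranges were apart, and the spread over libraries was small beside the difference.

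The 7 complex I subunits ran from 1639 to 8461 TPM and made up 33.0% of messenger TPM. MT-ND4 led them at 8461 ± 720 TPM (SD, n = 3), followed by MT-ND1 at 4669 ± 279, MT-ND5 at 4639 ± 386 and MT-ND4L at 4366 ± 452 TPM. MT-ND2 lay at 2612 ± 241 TPM and MT-ND6 at 2560 ± 263 TPM. MT-ND3 was the lowest messenger in each library, with 1502, 1600 and 1816 TPM (1639 ± 161). MT-CO1 was above MT-ND3 by 3.35 ± 0.07 on the log2 scale, 10.1 times by the ratio of means. MT-ND6, the only messenger coded on the light strand, was 1.19 ± 0.03 below the median of the 12 heavy-strand messengers on the log2(TPM + 1) scale. Counting ignored strand, so heavy-strand precursor RNA across MT-ND6 was counted with it and cannot be told apart.

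Ranked by mean TPM, 11 of the 12 neighbouring messenger pairs kept their order in all 3 libraries. The exception was MT-ND1 with MT-ND5, which differed by 0.01 ± 0.03 on the log2 scale and swapped places in replicate 3. In 6 of the 12 pairs the ranges over libraries were apart. The ranges overlapped for MT-ND4 with MT-CYB, MT-CYB with MT-ATP6, MT-ND1 with MT-ND5, MT-ND5 with MT-ND4L, MT-ATP8 with MT-ND2 and MT-ND2 with MT-ND6. Level and place in the genome showed no common order over the 12 heavy-strand messengers (Spearman's rho -0.0140 across genes of the same libraries). MT-CO1 was 2.67 ± 0.06 on the log2 scale above MT-ND2, the messenger gene before it, and MT-CO3 was 2.98 ± 0.06 above MT-ND3, the messenger gene after it.

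The ribosomal RNA genes stood far below the messengers in these rRNA-depleted libraries. MT-RNR2, the large-subunit ribosomal RNA, had 16772, 24387 and 19903 counts (863 ± 120 TPM, SD, n = 3). MT-RNR1, the small-subunit ribosomal RNA, had 1659, 2730 and 1873 counts (144 ± 31.5 TPM). MT-RNR2 was above MT-RNR1 by 2.59 ± 0.13 on the log2 scale, although both are cut from the same precursor. MT-ND1, which lies just downstream on the same strand, was above MT-RNR2 by 2.44 ± 0.18, and MT-CO1 by 4.28 ± 0.17. Depletion removes ribosomal RNA before sequencing, so these levels are of what was left after it and not of the cell.

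Transfer RNA genes varied far more than messengers, and the high ones were mostly on the light strand. The genes are shown at both ends of the range, 5′ to 3′ on their own coded strand (GRCh38), with any base shared with a neighbour in capitals.
MT-TY (chrM:5826-5891, minus strand): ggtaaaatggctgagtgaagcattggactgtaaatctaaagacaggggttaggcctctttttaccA
MT-TV (chrM:1602-1670, plus strand): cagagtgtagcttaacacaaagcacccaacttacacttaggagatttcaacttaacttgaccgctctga

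MT-TY, the tyrosine transfer RNA gene, had 2038, 2446 and 2168 counts (2227 ± 99.1 TPM, SD, n = 3). Its level was above that of the messenger MT-ND3 in all 3 libraries. The asparagine gene MT-TN had 1461, 1675 and 1643 counts (1449 ± 71.8 TPM), and the proline gene MT-TP had 1073, 1405 and 1341 counts (1240 ± 133 TPM). These 3 genes, all coded on the light strand, held 53.2% of the transfer RNA counts. At the other end, the valine gene MT-TV, between the ribosomal RNA genes, had 1, 8 and 1 counts (3.09 TPM), 10 in all with a 95% exact Poisson interval of 4.80 to 18.4 for counting error only. Without replicate 2 its mean was 0.990 TPM.

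Of the 22 transfer RNA genes, 7 had a mean over 500 TPM, 6 of the 8 on the light strand and 1 of the 14 on the heavy strand. The light-strand genes were MT-TY, MT-TN, MT-TP, MT-TC at 705 ± 31.6 TPM, MT-TS1 at 666 ± 115 TPM and MT-TA at 594 ± 12.3 TPM (SD, n = 3). The heavy-strand gene was MT-TL1, the leucine gene next to MT-RNR2, at 670 ± 61.6 TPM. The remaining light-strand genes were MT-TE at 263 ± 23.5 TPM and MT-TQ at 34.0 ± 6.27 TPM. Besides MT-TL1 and MT-TV, the other 12 heavy-strand genes lay between 44.5 and 260 TPM, with MT-TT at the top and MT-TW at the bottom. Light-strand genes held 77.4% ± 0.868 of transfer RNA counts. The difference of strand medians, heavy minus light, was -2.63 ± 0.10 among transfer RNA genes on the log2(TPM + 1) scale. Over all 37 genes it was -0.78 ± 0.05, and -0.15 with means of the log2 levels in place of medians.

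**Figure D2:**
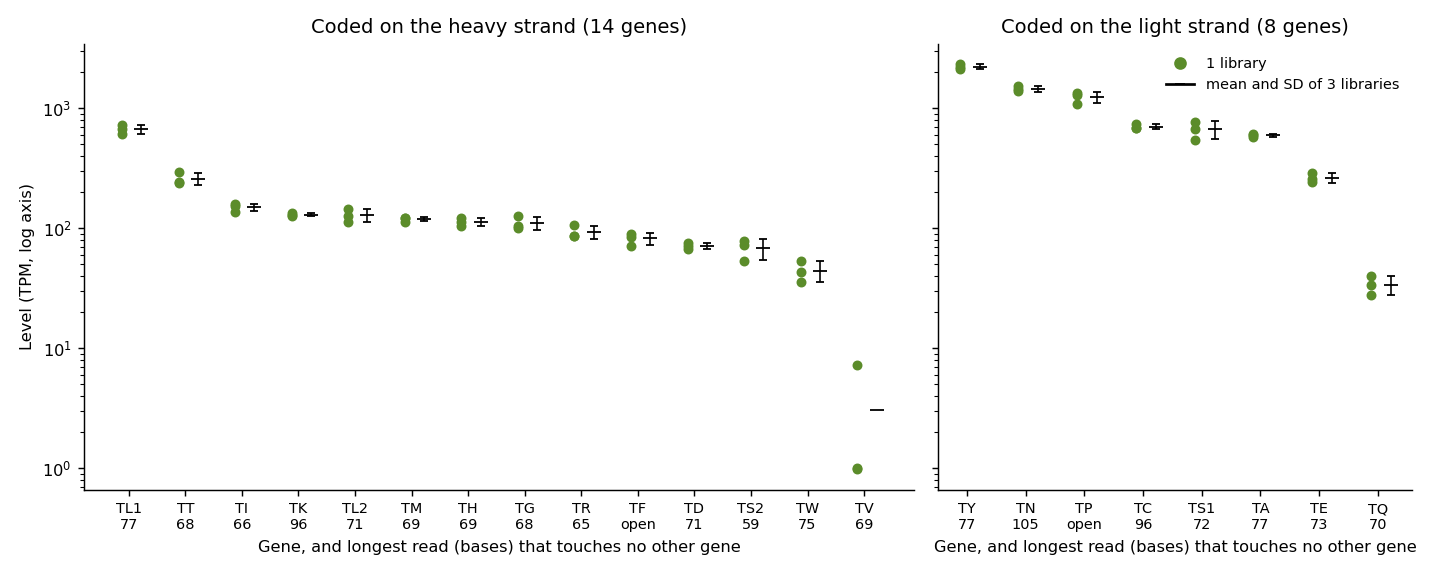
Level of the 22 transfer RNA genes in TPM (log axis), by coding strand and ordered by mean, with 1 point per C4-2B library and the mean and SD beside them (no SD bar for MT-TV, whose SD exceeds its mean). Under each name stands the longest read in bases that touches the gene and no other, and 6 of 8 light-strand genes lie over 500 TPM against 1 of 14 on the heavy strand.

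In 5 places a transfer RNA gene lies next to one on the opposite strand, and the light-strand gene was the higher in 3 of them. MT-TA, MT-TN, MT-TC and MT-TY form a run on the light strand between MT-TW and MT-CO1, and MT-TA was above the adjacent heavy-strand gene MT-TW by 3.76 ± 0.26 on the log2 scale. MT-TS1, the light-strand serine gene after MT-CO1, was above the adjacent heavy-strand aspartate gene MT-TD by 3.21 ± 0.32. MT-TP was above its heavy-strand neighbour MT-TT by 2.26 ± 0.15, with ranges apart in all these pairs. In the other 2 the heavy-strand gene was higher, and both involve light-strand MT-TQ, the glutamine gene. MT-TI was above MT-TQ by 2.15 ± 0.17 and MT-TM, the methionine gene, by 1.83 ± 0.21. Within the light-strand run, MT-TY was above MT-TC by 1.66 ± 0.09 and MT-TN above MT-TA by 1.29 ± 0.06. Because strand was not used, a read in a light-strand transfer RNA gene may come from RNA of either strand, and these counts do not separate them.

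Which reads could be counted depended on their length, which is not given in the sources used here. All start positions of ungapped reads of 50, 75, 100 and 150 bases on the genome were therefore sorted by the genes they touch. Reads touching at least 2 genes, which were dropped, made up 10.5% of start positions at 50 bases, 15.5% at 75, 18.5% at 100 and 23.4% at 150. By the genes touched, no transfer RNA gene was closed to reads of 50 bases, whereas 13, 19 and 20 of the 22 had 0 usable positions at 75, 100 and 150 bases. Positions with an exact match in the nuclear genome, described below, were kept as usable here. Without them, MT-TQ, MT-TN, MT-TS1 and MT-TK had 0 positions at 50 bases too. The 13 genes closed to a read of 75 bases nevertheless held 6397 counts, so those reads covered under 75 bases of the genome if aligned without a gap. MT-TS2 took reads of at most 59 bases and had 62, 50 and 68 counts.

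The levels were also set beside the room each gene leaves for a read. Of the 22 transfer RNA genes, 17 took reads of at most 77 bases, and these held 60.3% of transfer RNA counts. Among those 17, the 12 heavy-strand genes had a median of 112 TPM (3.09 to 670) and the 5 light-strand genes a median of 594 TPM (34.0 to 2227). The light-strand median moved with the limit, since MT-TY and MT-TA lie exactly at 77 bases. Among the 13 genes closed to a read of 75 bases, the 3 light-strand genes MT-TS1, MT-TE and MT-TQ had a median of 263 TPM (34.0 to 666) and the 10 heavy-strand genes a median of 112 TPM (3.09 to 260). MT-TF and MT-TP border the control region and were open to reads of all 4 lengths, and MT-TP was above MT-TF by 3.91 ± 0.06 on the log2 scale. Across the 22 genes, level and longest usable read had a Spearman's rho of 0.515, given as a description since the genes share their libraries. The part of read length in the levels of both strands was not tested.

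Among messengers, the loss at gene borders fell mostly on the short genes. At 75 bases, 31.3% of the start positions touching MT-ATP8 touched no other gene, and 58.2% did so for MT-ND4L, 64.8% for MT-ND3 and 74.2% for MT-ATP6. The share was 89.3% for MT-ND4, 91.6% for MT-CO1 and 92.2% for MT-ND5. At 150 bases it fell to 3.65% for MT-ATP8. These shares describe positions in the genome and not reads that were seen.

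**Figure D3:**
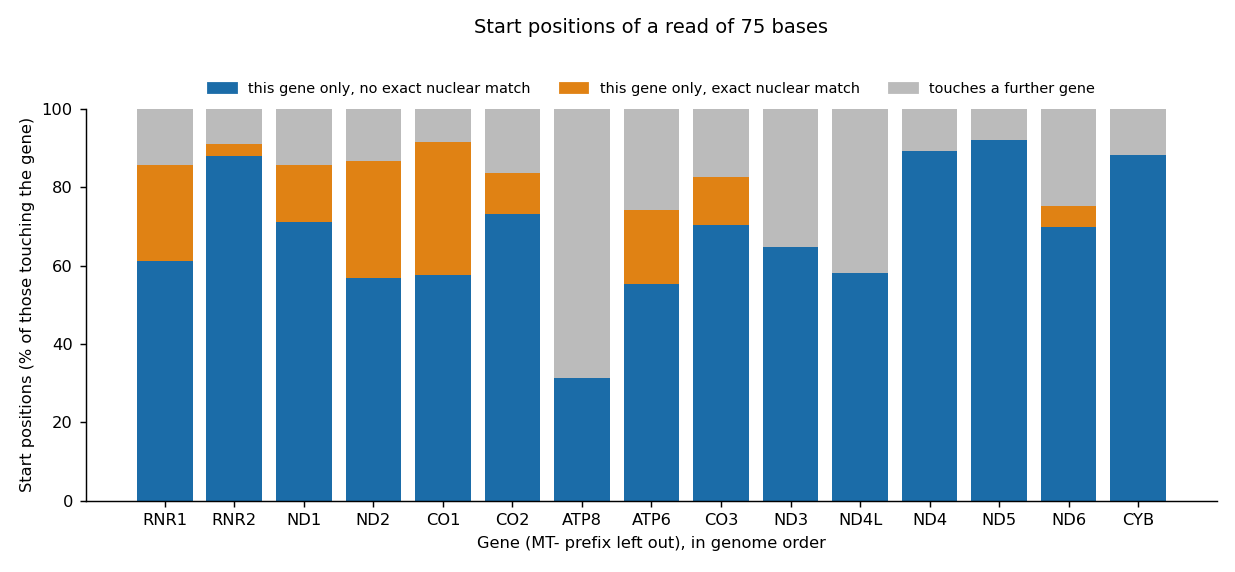
For each messenger and ribosomal RNA gene in genome order, the percentage of start positions of a 75-base read that touch this gene alone without an exact match in the nuclear genome, this gene alone with such a match, or a further gene as well. MT-ATP8 has the smallest share of positions in it alone (31.3%), and exact nuclear matches are frequent in MT-CO1 and MT-ND2.

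Dividing the counts by usable positions, those touching no other gene, instead of gene length moved MT-ATP8 most among the messengers. Positions with an exact nuclear match were kept in these lengths, so they overstate what could be counted. At 75 bases MT-CO1 had 1480 positions, 930 of them without such a match, and MT-ATP6 had 560 and 417. MT-ATP8 had 88, all without a match. Its mean went from 2945 to 3787 ± 421 TPM with only unshared bases as the length, to 6928 ± 771 with positions for a 75-base read, and to 46900 with positions for a 150-base read. Its rank among the 13 messengers was 10, 10, 7 and 1 in that order. MT-ND4L went from 4366 to 6003 ± 622 TPM at 75 bases and to 9196 at 150, and MT-ND3 from 1639 to 2085 ± 204 and 2879 TPM. MT-ND3 remained the lowest messenger under all 4 lengths. MT-CO1 was the highest under all but the 150-base positions, where MT-ATP8 passed it. The difference between MT-ATP6 and MT-ATP8 thus depended on the read length assumed, which is unknown. Of these lengths, only the 150-base positions reversed it. At 150 bases 20 of the 22 transfer RNA genes had 0 usable positions, although each had counts.

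**Figure D4:**
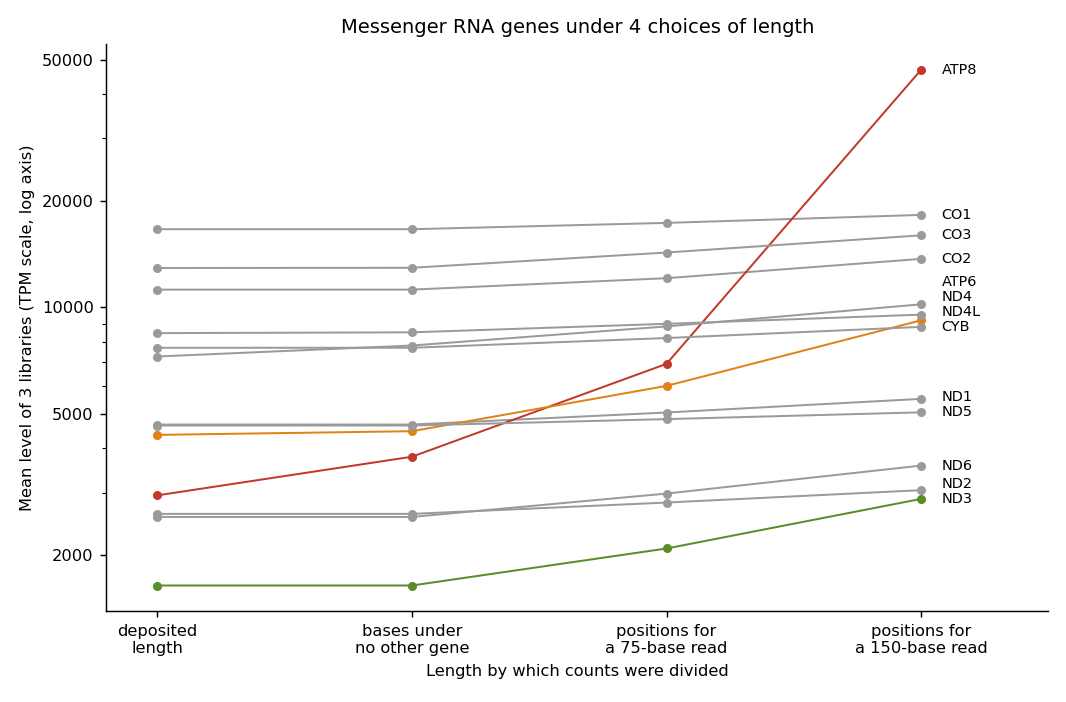
Mean level of the 13 messenger genes over 3 C4-2B libraries (TPM scale, log axis) when counts are divided by the deposited length, by bases under no other gene, or by start positions usable for reads of 75 or 150 bases. The line of MT-ATP8 climbs from 2945 to 46900, while MT-CO1 moves from 16630 to 18251. Positions with an exact nuclear match are kept.

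Stretches of this genome are also copied in the nuclear chromosomes, and a read placed equally well at several sites was not counted. Of all start positions, 23.8% matched a nuclear chromosome exactly at 50 bases, 14.4% at 75, 9.32% at 100 and 4.35% at 150. At 75 bases the share was 41.8% for MT-CO1, 31.6% for MT-ND2, 28.4% for MT-RNR1, 24.3% for MT-CO2 and 24.0% for MT-ATP6, and it was 0 for MT-ND3, MT-ND4, MT-ND4L and MT-CYB. The longest exact copies were of 266 bases in MT-ND2 and 245 in MT-CO1, both on chromosome 1. Among transfer RNA genes the 75-base share ran from 0, as for MT-TP, to 76.4% for MT-TK and 100% for MT-TN. MT-TN matched chromosome 1 over all of its 73 bases and still had 4779 counts over the libraries, and a mate outside the copy can place a pair. Light-strand MT-TA, MT-TQ, MT-TS1 and MT-TE and heavy-strand MT-TW and MT-TK also matched a nuclear chromosome over their whole length. How many reads were lost this way was not tested.

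The nuclear copies of 7 mitochondrial genes on chromosome 1 were far lower than their originals. MTATP6P1 was at 462 ± 31.7 TPM and MTND2P28 at 228 ± 20.3 TPM (SD, n = 3), against 7267 and 2612 TPM for MT-ATP6 and MT-ND2. MTCO1P12 was at 31.8 ± 2.19 TPM, and the other 4 copies were at 1.39 TPM or lower. Of the 5 copies with enough counts to test, MTND2P28 and MTATP6P1 passed the test between libraries described next, beside 0.792% of all genes. Both were highest in replicate 3 (adjusted p = 0.00176 and 0.0181 in the chi-square test over all genes). MTCO1P12 was highest in replicate 1 and did not pass (adjusted p = 0.615 in the same test). MTCO2P12 and MTCO3P12, with 43 and 30 counts, did not pass either. Reads of a copy and its original can be exchanged where the sequences agree.

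To ask which genes varied between the libraries beyond counting error, each gene's 3 counts were set against the scaled library sizes in a chi-square test. The chi-square was divided by 2 for separately counted mates, with Benjamini-Hochberg adjustment over 22229 genes. Of the 36 mitochondrial genes tested, 16 passed an adjusted p of 0.05 (44.4%), against 0.792% of all genes tested. High counts make small differences detectable, and of 3499 nuclear genes with at least 10000 counts 2.8% passed, whereas 14 of 14 mitochondrial genes with as many counts did. The mitochondrial genes are read as long shared precursor RNAs and measured in the same libraries, so their calls are not separate findings. The test compares libraries and not conditions.

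All 13 messengers passed, each lowest in replicate 1 and highest in replicate 3. The log2 difference of scaled counts, replicate 3 minus replicate 1, ran from 0.13 (MT-CO1) to 0.29 (MT-ATP8), with a median of 0.23. It was 0.13 to 0.18 for the 3 complex IV genes, 0.16 to 0.28 for the 7 complex I genes and 0.26 to 0.29 for both ATP synthase genes. The median range over libraries was 0.05 for nuclear genes with at least 10000 counts. The highest adjusted p of a messenger was 2.01e-13, for MT-ND3. Between replicates 1 and 2 alone, MT-ATP8 and MT-ND3 no longer passed. The gene with the most counts in the tables, the signal recognition particle RNA gene RN7SL2, also passed but was highest in replicate 1, with 1.96%, 1.88% and 1.81% of counts in replicates 1, 2 and 3, and its part in the differences was not tested.

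**Figure D5:**
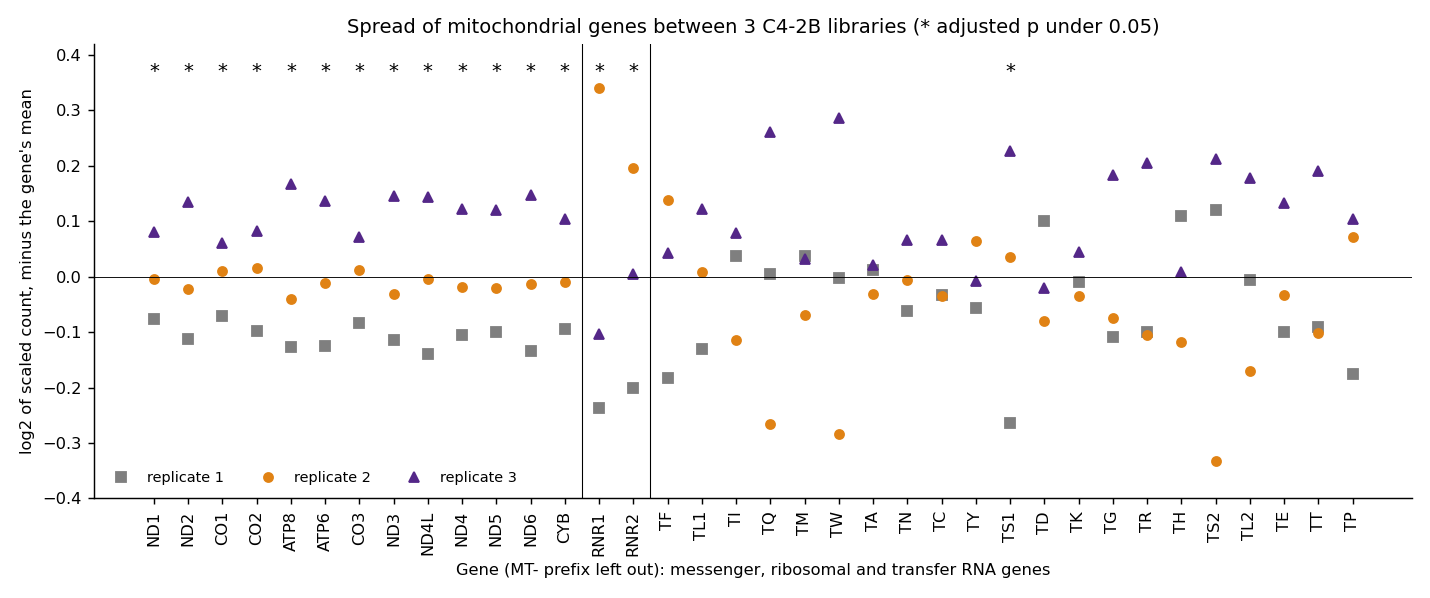
Scaled counts of 36 mitochondrial genes in the 3 C4-2B libraries, as log2 minus the gene's own mean, for messenger, ribosomal and transfer RNA genes (MT-TV, with 10 counts, is left out). Stars mark an adjusted p under 0.05: all 13 messengers are lowest in replicate 1 and highest in replicate 3, and both ribosomal RNA genes are highest in replicate 2.

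The ribosomal RNA genes also passed, in another order. Both were highest in replicate 2 and lowest in replicate 1, by 0.58 for MT-RNR1 and 0.40 for MT-RNR2 on the log2 scale of scaled counts. MT-RNR1 in replicate 3 was 0.13 above replicate 1, and it no longer passed without replicate 2. MT-TV, which sits between them, had 8 of its 10 counts in replicate 2 as well, too few for the test.

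Of the 21 transfer RNA genes tested, 1 passed, beside 0.792% of all genes. An unadjusted p under 0.05 was found for 2, a level at which the share of all genes was not computed. Unlike the messengers, 13 of the 22 transfer RNA genes were lowest in replicate 2 and 8 in replicate 1, by scaled counts. MT-TS1 had 547, 743 and 791 counts, lowest in replicate 1 (adjusted p = 0.0181 in the chi-square test over all genes), and it no longer passed without replicate 1, without replicate 3, or with the chi-square divided by its mean over all genes. MT-TP missed the threshold (adjusted p = 0.0998 in the same test). Transfer RNA genes had fewer counts, and their median log2 difference of replicate 3 minus replicate 1 was 0.16, beside 0.23 for messengers. Without the division by 2, MT-TP and MT-TL1 passed too, which made 18 mitochondrial genes, but 17.3% of all genes then passed.

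Proteins of the 24 nuclear genes listed act in making or handling mitochondrial RNA or, like POLG, TWNK and SSBP1, in copying mitochondrial DNA. These genes were all at lower levels than the lowest mitochondrial messenger. They lay between 4.78 and 243 TPM with a median of 48.9. The mitochondrial RNA polymerase POLRMT was at 50.1 ± 1.85 TPM and the packaging and initiation factor TFAM at 40.1 ± 0.792 TPM (SD, n = 3). LRPPRC, which stabilises messengers, was at 92.7 ± 1.76 TPM. Of the processing enzymes, ELAC2 was at 64.6 ± 0.102 TPM, and the RNase P subunits TRMT10C, HSD17B10 and PRORP at 92.7, 243 and 4.78 TPM. By the chi-square test 0 of the 24 passed the adjusted threshold, beside 0.792% of all genes. At an unadjusted p under 0.05 there were 3, and the share of all genes at that level was not computed. Without the division by 2, 5 were called, beside 17.3% of all genes, and neither number of calls sets these genes apart.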

How the data were processed

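RNA-seq of 3 C4-2B libraries was used, grouped by the sample titles. The authors made the deposited counts with featureCounts (Subread 1.6.3) on Ensembl 90 genes, per the file headers, without normalization, after alignment to GRCh38 with STAR 2.7.0f per the submitters' processing notes. The recorded command set no option for strand, pairs, overlapping genes or multiple alignments, so reads touching more than 1 gene and reads placed at several sites were not counted. Gene length, the other value used from the authors' deposited tables, was the base of TPM. Symbols were matched for 57532 of 58302 identifiers.

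To compare libraries, the fit of each gene's counts to TMM-scaled sizes (edgeR 4.0.16) was tested by chi-square, 2 degrees of freedom, for genes with at least 30 counts. Chi-squares were divided by 2, and the Benjamini-Hochberg threshold was 0.05. The test was checked on simulated counts. Level differences are described with no test, since 1 group was analysed. Class medians used a pseudocount of 1 TPM. Read positions and exact nuclear matches (chromosomes 1 to 22, X and Y) were computed from the GRCh38 sequence, from which the cell line may differ. Alternatives covered left-out libraries, lengths, scaling (DESeq2 1.42.0 size factors or totals), count minimums and the divisor. Named genes are the 37 members, 24 nuclear processing genes, 7 nuclear copies, markers and RN7SL2. Members and lists were chosen with earlier results of these data known. Python 3.11.15, scipy 1.17.1 and R 4.3.3 were used. Intervals cover counting error only and are too narrow, since mates were counted separately and no molecular identifiers were used.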

Additional observations from a re-analysis of the deposited data

How the results depend on the processing

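The share of counts in mitochondrial genes was 2.81% to 2.99% with each library left out, 2.96% without RN7SL2, 2.83% for messengers alone and 9.79% as a share of TPM. The log2 difference between messenger and transfer RNA genes was 5.14 to 5.22 with each library left out and 4.92 with class means. It was not computed with read positions, since 13 of the 22 transfer RNA genes had none at 75 bases. Of the others, MT-TY went from 2227 to 49000 on the TPM scale with 75-base positions, beside MT-CO1 at 17326. The MT-TY value rests on 3 start positions. Counts in genes closed to a 75-base read show that shorter stretches were counted too, if aligned without a gap. The value is therefore not an estimate of the MT-TY level. MT-TW, with 1 start position, went from 44.5 to 3024, whereas MT-TF stayed at 82.3 and MT-TP went from 1240 to 1205. The heavy minus light log2 difference was -0.81 to -0.75 with each library left out, -0.15 with strand means and -2.63 among transfer RNA genes alone. The number of mitochondrial genes called was 13 to 15 with each library left out, 13 without replicate 3. It was 16 with DESeq2 size factors, library totals or minimums of 1, 10 or 100 counts, and 18 without the division by 2. In alternatives added after seeing the data, it was 14 with at least 10000 counts and 15 with the chi-square divided by its mean per degree of freedom (3.11), which lost MT-TS1. Calls among all genes were 176, and 38, 223 and 44 without replicates 1, 2 and 3. They were 3835 without the division and 44 with the mean divisor. Leaving RN7SL2 out of the TPM scale raised every level, with MT-CO1 at 20674 TPM in place of 16630. Of the 37 levels, 36 moved by more than their SD. Unshared bases moved 1 level (MT-ATP8), and positions for reads of 75 and 150 bases moved 15 of 24 and 13 of 17. The other 13 and 20 genes had no value there. The class and strand differences kept their sign in the alternatives computed, and the other values cannot be negative. The order of MT-ATP6 and MT-ATP8 reversed with 150-base positions, where MT-ATP8 had 13 positions, at 10204 and 46900 on the TPM scale. No paired analysis was possible because files of 1 group were analysed.

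The read length is unknown, and reads at gene borders, in nuclear copies and on the opposite strand could not be recovered from the counts. MT-TV had 10 counts, too few to compare libraries.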
